A study of Mus musculus with 4 samples.

Results

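The tunicamycin and starvation lists of TFE3 binding sites from mouse embryonic fibroblasts (MEF) are set side by side here, as 2 stresses acting on 1 transcription factor. All peaks of both lists were taken: 1712 starvation peaks and 2776 tunicamycin peaks, or 4488 of the 4910 peaks in the 3 lists of the series. A peak was called shared when at least 1 bp of it lay under a peak of the other list. Sites were measured by chromatin immunoprecipitation and sequencing (ChIP-seq) with a TFE3 antibody, and each group was 1 library.

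The starvation library came from cells kept for 2 hours in Earle's balanced salt solution, which holds no amino acids or serum. The tunicamycin library came from cells given 0.1 µg/ml tunicamycin for 16 hours. The time, the medium and the agent therefore all differ between the libraries and cannot be told apart. The labels name CRL-2977 cells for both, grown in medium with 10% fetal bovine serum, fixed in 1% formaldehyde and sonicated. Both lists were called against the same rabbit IgG library, so any local excess or gap in that background enters both.

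TFE3 is a basic helix-loop-helix leucine zipper factor of the MITF/TFE family that binds E-box sequences and activates genes of lysosomes and autophagy. In fed cells it is held in the cytoplasm after phosphorylation by mTORC1 on the lysosome surface, and loss of amino acids lets it enter the nucleus. Tunicamycin blocks N-linked glycosylation, so unfolded proteins collect in the endoplasmic reticulum (ER). ER stress also brings TFE3 into the nucleus, where the factor is known to act within the integrated stress response.

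The depth of the libraries bears on every value that follows. No read totals were among the files, and tag numbers at the summit, the highest point of a peak, were recovered from the deposited fold enrichment and p-value. By this recovery the tunicamycin library had 1.33 times the depth of the starvation one. Its shortest peak, which MACS2 sets to the fragment length, was 212 bp against 193 bp, or 1.10 times as long. Summit tags were taken to grow in proportion to both depth and fragment length, an assumption that was not tested. Under it, 1 tunicamycin tag corresponded to 0.687 starvation tags at equal enrichment. All scaled tag ratios and expected tags below rest on this value, and scaling by depth alone was not computed. The fold enrichment at the summit, given by the authors, is the scaled tag number over the local IgG background with 1 added to each.

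TFE3 occupied a common core of strong sites in both stresses. The 192 highest-scored starvation peaks all had a tunicamycin peak, and the 186 highest-scored tunicamycin peaks all had a starvation peak. The 100 highest-scored starvation peaks had counterparts at a median rank of 53.5 in the tunicamycin list (quartiles 25.8 and 97.2, lowest placed 719). In the other direction, the 100 highest-scored tunicamycin peaks had counterparts at a median rank of 57.5 in the starvation list (27.8 and 99.8, lowest placed 421). No peak of the top ranks in one stress was thus missing from the other list, although single sites were far apart in rank.

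Below this core the lists parted. In each list 1292 peaks were shared, or 75.5% of the 1712 starvation peaks and 46.5% of the 2776 tunicamycin peaks. The longer list has the lower share by construction, so the deciles of the lists cannot be compared directly. With the tunicamycin list cut to 1712 peaks the share was 62.1% of either list. In the starvation list 171 of 171 peaks in the highest score decile were shared. The share was 85.4% in the fourth decile (95% interval 79.2 to 90.3), 70.8% in the sixth (63.3 to 77.5) and 39.5% in the last (32.2 to 47.3). In the tunicamycin list it was 99.3% in the highest decile (97.4 to 99.9) and 65.3% in the third (59.4 to 70.9). It was 21.2% (16.6 to 26.5) in the seventh decile and 23.7% (18.9 to 29.2) in the last, so it no longer fell over the last 4 deciles. Each interval is an exact Clopper-Pearson interval and covers counting error over peaks only.

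**Figure D1:**
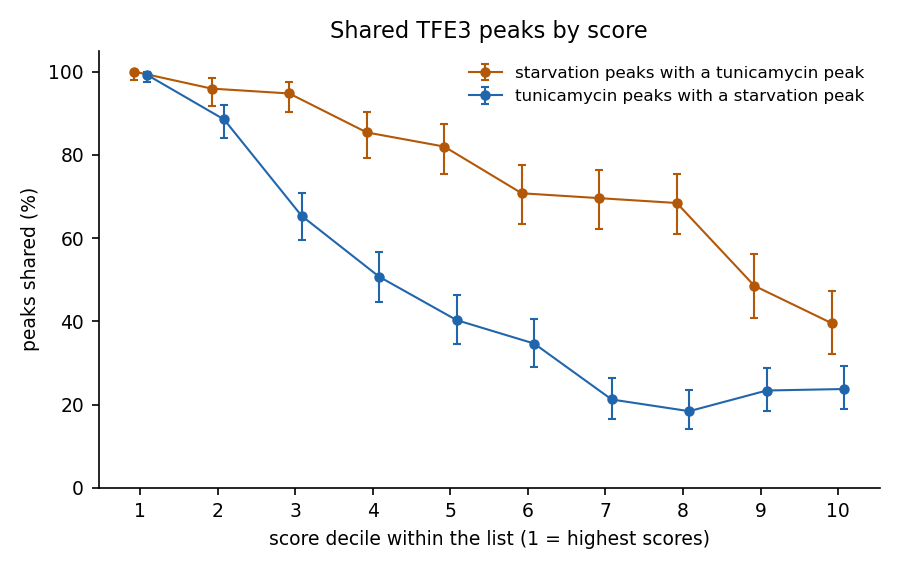
Share of TFE3 peaks with a counterpart in the other list (vertical axis, %) by score decile within each list (horizontal axis, 1 = highest scores). Points are shares and bars 95% exact binomial intervals. The starvation share runs from 100% to 39.5%, and the tunicamycin share reaches its lowest values, 18.4% to 23.7%, over the last 4 deciles. The tunicamycin list is the longer, which lowers its shares by construction.

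The same held when peaks were ordered by fold enrichment. Of 208 starvation peaks at 10-fold or more, 207 were shared. Of 398 tunicamycin peaks at 10-fold or more, 386 were shared (97.0%, 94.8 to 98.4). Between 5-fold and 6-fold, 267 of 414 starvation peaks were shared (64.5%, 59.7 to 69.1), and so were 186 of 765 tunicamycin peaks (24.3%, 21.3 to 27.5). The tunicamycin list is the longer in this band too, so these shares are not like for like. In each list the unshared peaks had the lower median fold. It was 5.32 beside 6.81 for shared peaks in starvation, and 5.66 beside 7.96 in tunicamycin.

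Few peaks lay near the limit of the 1 bp rule. There were 1293 overlapping pairs, of which 1289 joined 1 peak to 1 peak. The smallest overlap among these was 103 bp, and the median was 262 bp (quartiles 222 and 313). Outside the rule, the nearest miss was a starvation peak on chromosome 14 at 66766402 to 66766643, which lay 39 bp from a tunicamycin peak. Only 3 of 420 unshared starvation peaks and 3 of 1484 unshared tunicamycin peaks had a peak of the other list within 500 bp. On chromosome 2, 1 starvation peak at 119698424 to 119699174 spanned 2 tunicamycin peaks, at 119698432 to 119698791 and 119698875 to 119699227. The starvation summit, at 119699032, lay 46 bp from the second of them.

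Where both stresses gave a peak, the summit hardly moved. Summits lay a median of 14 bp apart (quartiles 7 and 27), 507 of 1289 pairs (39.3%, 36.7 to 42.1) were within 10 bp, and 20 fell on the same base. The shift had no side: 639 tunicamycin summits (49.6%, 46.8 to 52.3) lay at the higher coordinate, and the median signed shift was 0 bp. In 18 pairs (1.40%, 0.830 to 2.20) the summits were more than 100 bp apart. The widest distance (picked with its value known) was 367 bp on chromosome 12, with summits at 111829973 in starvation and 111829606 in tunicamycin. That site had 52 starvation tags (95% exact Poisson interval 38.8 to 68.2) and 46 tunicamycin tags (33.7 to 61.4). The list medians were 37 and 53 tags. Its peaks were wide, at 585 bp in starvation and 595 bp in tunicamycin, beside list medians of 266 and 286 bp. What set the summits apart there was not tested.

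The tunicamycin peak was the wider of the pair at 1022 of 1289 sites (79.3%, 77.0 to 81.5), with a median width ratio of 1.21 (quartiles 1.05 and 1.37). It contained the whole starvation peak at 798 sites (61.9%, 59.2 to 64.6), and the reverse was true at 119 (9.23%, 7.71 to 10.9). The longer fragments move with this, at 1.10 times, and so does the greater depth, and their part in the widths was not tested. Shared peaks were wider than unshared ones also within 1 band of fold in the tunicamycin list. Between 6-fold and 8-fold, the 341 shared tunicamycin peaks had a median width of 316 bp (285 to 349) and the 451 unshared ones 274 bp (252 to 303). In the starvation list the same band gave 265 bp (229 to 299) for 452 shared peaks and 257 bp (223 to 289) for 104 unshared peaks. Strength was not equal within the band. Of the tunicamycin peaks, 162 of the 341 shared and 142 of the 451 unshared ones were at 7-fold or more. In the starvation list these were 169 of the 452 shared and 16 of the 104 unshared peaks.

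**Figure D2:**
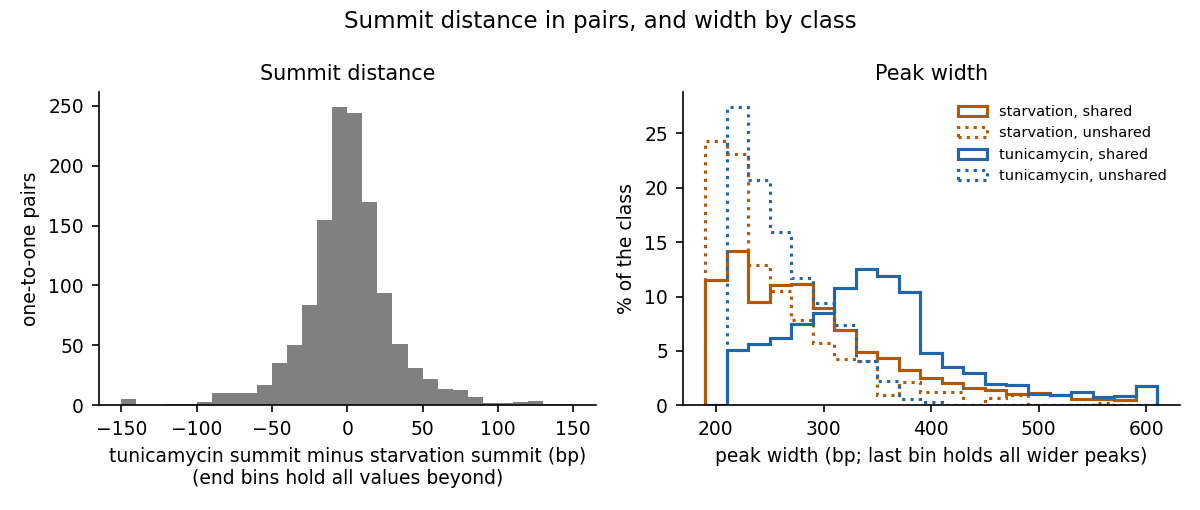
Left, distance from the starvation summit to the tunicamycin summit in bp (horizontal axis) over the 1289 one-to-one pairs (vertical axis, pairs). Right, peak width in bp by list and class (vertical axis, % of the class), where solid lines are shared and dotted lines unshared peaks. The distances centre on 0 bp, and shared tunicamycin peaks, with a median of 340 bp, are the widest class.

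The fold enrichment at shared sites was on balance slightly higher in the tunicamycin library. The ratio of fold, tunicamycin over starvation, had a median of 1.15 over the 1289 pairs (quartiles 0.944 and 1.39), and it was above 1 at 880 pairs (68.3%, 65.7 to 70.8). Summit tags scaled for depth and fragment length gave a median of 1.13 over 1276 pairs (0.915 and 1.34). The fold was at least 1.5 times higher in tunicamycin at 192 pairs and at least 1.5 times higher in starvation at 57. These are 14.9% and 4.42% of the pairs, and with scaled tags 12.9% and 4.86%. Most shared sites thus differed by less than 1.5 times. With 1 library a side no replicate spread exists to set these ratios against, and no test was made. A difference between the libraries cannot be told apart from one between the stresses.

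The median ratio depended on which list ordered the sites. Among pairs in the highest 25% of the starvation list by score it was 1.09, and in the lowest 25% it was 1.30. Ordered by the tunicamycin score, it was 1.32 in the highest 25% and 0.831 in the lowest. The ordering list's own value is part of the ratio in each case, so neither order by itself shows that strong or weak sites favour a stress.

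The local background also moved with the ratio. At the 548 pairs where no local IgG signal entered either call, the median fold ratio was 1.22 (1.00 to 1.44). At the 664 pairs above the genome-wide background in both lists, it was 1.11 (0.899 to 1.33). Scaled tags gave 1.20 and 1.08 for the same pairs. Over all pairs the recovered background was a median of 1.10 times higher in the tunicamycin list, which equals the ratio of fragment lengths. Pairs without local IgG signal thus had the higher median ratio, with overlapping quartiles. The background divides the fold, strength and width were not held equal, and the part of IgG signal was not tested.

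The ratio is also given by peak width in starvation. The narrowest 25% of pairs (193 to 229 bp in starvation) had a median fold ratio of 1.27 (1.05 to 1.46), and the widest 25% (334 to 952 bp) had 1.00 (0.844 to 1.19). Within starvation peaks of 6-fold to under 8-fold, the 228 narrower ones had a median ratio of 1.24 (1.02 to 1.43), and the 224 wider ones 1.05 (0.840 to 1.40). Starvation fold still differed between these, with medians of 6.63 and 7.0, and it divides the ratio, so the order by width, like that by score, does not show that narrow sites favour a stress.

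Pairs past the 1.5-fold limit differed by direction in tags and width. The 192 tunicamycin-leaning pairs had a median of 35 starvation tags and 85 tunicamycin tags, and their peaks had median widths of 245 bp in starvation and 360 bp in tunicamycin. The 57 starvation-leaning pairs had a median of 55 starvation tags and 47 tunicamycin tags, with widths of 345 bp and 299 bp. Their median rank was 301 by starvation score and 2074 by tunicamycin score, with quartiles of 200 and 516 in the first and 1401 and 2485 in the second. Tags, folds and ranks of these groups follow from how they were chosen, and widths were not compared at equal fold. Summit positions do not enter the ratio, but tags and widths were not held equal, so the summit distances are a description. Summits were a median of 11 bp apart in the first group and 25 bp in the second.

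**Figure D3:**
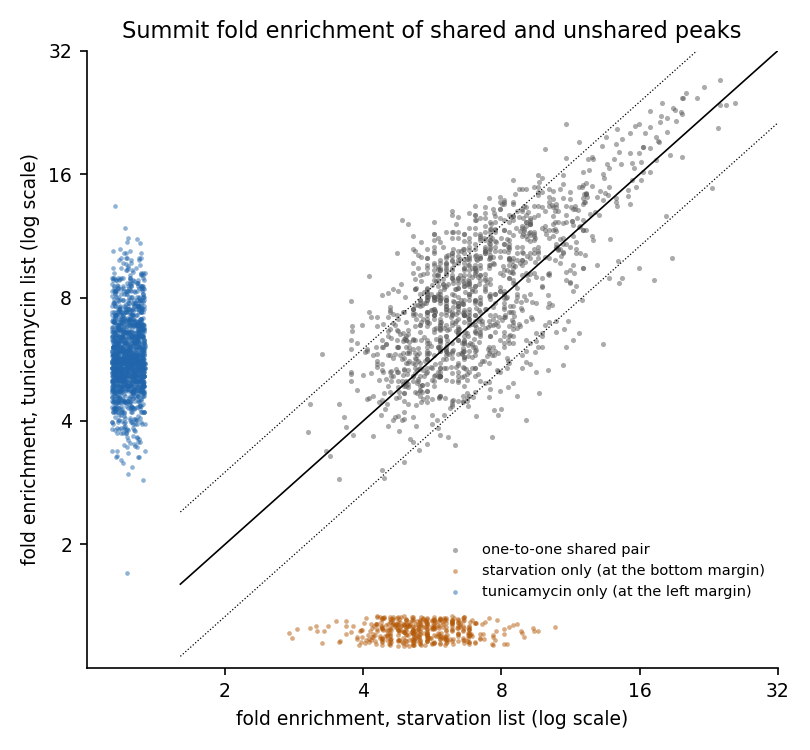
Authors' fold enrichment at the summit in the starvation list (horizontal axis) and the tunicamycin list (vertical axis), both on log scales, for 1289 one-to-one pairs in grey. The solid line marks equal fold and the dotted lines a ratio of 1.5, and unshared peaks stand at the margins with random spread across the margin only. More pairs lie above the upper dotted line (192) than below the lower one (57). Median fold was 5.32 for unshared and 6.81 for shared starvation peaks, and 5.66 and 7.96 in the tunicamycin list.

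The 5 sites of best mean rank are described next, and they were chosen for a high rank in both lists. The best mean rank over both lists belonged to chromosome 19 at 4201421 to 4202064 in the starvation list, with 171 starvation tags and 298 tunicamycin tags. After scaling for depth and fragment length, tunicamycin was 1.20 times starvation there (95% exact interval 0.988 to 1.45, counting error only). The scaled ratio was 1.16 (0.937 to 1.43) on chromosome 11 at 51814125 to 51814640 and 1.03 (0.845 to 1.26) on chromosome 6 at 54816662 to 54817197. It was 1.18 (0.953 to 1.48) on chromosome 7 at 52721915 to 52722447 and 1.02 (0.815 to 1.28) on chromosome 3 at 89006565 to 89007084. All 5 intervals include 1 with this scaling. Dividing by the longer tunicamycin fragment length lowers each ratio. Whether the intervals would include 1 with scaling by depth alone was not computed. The intervals cover counting error only. As the sites were chosen for rank, they say nothing about strong sites in general.

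Sites that leaned to starvation included some of its strongest. On chromosome 11 at 69804354 to 69804979, the starvation peak ranked 9 at 18.8-fold with 152 tags (129 to 178). The tunicamycin peak there ranked 236 at 9.98-fold with 110 tags (90.4 to 133). The scaled tag ratio was 0.497 (0.385 to 0.639), and the background was 4.05 and 4.24 IgG tags per fragment. On chromosome 3 at 87981503 to 87981905, starvation had 17.2-fold and 91 tags (73.3 to 112), tunicamycin had 8.81-fold and 65 tags (50.2 to 82.8), and the scaled ratio was 0.490 (0.351 to 0.682). Both sites thus had less scaled TFE3 signal in the tunicamycin library by fold and by tags.

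The other 3 starvation-leaning sites rested in part on the background of each list. On chromosome 1 at 52170656 to 52170969, the fold was 13.3 in starvation and 6.17 in tunicamycin, the lowest ratio among pairs at or above the median score in both lists, at 0.463. Its background was 2.51 and 4.0 IgG tags, and the scaled tag ratio was 0.594 (0.418 to 0.841). On chromosome 11 at 116714865 to 116715243, the fold was 11.8 and 6.54, and the scaled tag ratio 0.687 (0.483 to 0.975). On chromosome 11 at 97887832 to 97888116, the fold was 9.52 and 5.27, but the background was 3.0 and 6.0 IgG tags. The scaled tag ratio at that site was 0.881 (0.621 to 1.26), an interval that includes 1.

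Sites that leaned to tunicamycin ranked 98 to 844 in the starvation list and 23 to 215 in the other. The highest fold ratio among pairs at or above the median score in both lists was 1.96, on chromosome 19 at 35632681 to 35632960, with 40 starvation tags (28.6 to 54.5) and 106 tunicamycin tags (86.8 to 128). Its scaled tag ratio was 1.82 (1.25 to 2.69). On chromosome 1 at 23751890 to 23752116, the counts were 36 (25.2 to 49.8) and 100 (81.4 to 122), with a scaled ratio of 1.91 (1.29 to 2.87). On chromosome 6 at 9028574 to 9028857, they were 35 (24.4 to 48.7) and 96 (77.8 to 117), with a scaled ratio of 1.88 (1.27 to 2.86). Summits at both of these sites were 2 bp apart.

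The remaining 2 tunicamycin-leaning sites had smaller tag ratios than fold ratios. On chromosome 9 at 102528429 to 102528831, the fold was 11.1 in starvation and 21.2 in tunicamycin, where the peak ranked 23. The background was 4.0 and 3.0 IgG tags, and the scaled tag ratio was 1.40 (1.08 to 1.83). On chromosome 16 at 93383354 to 93383950, the fold ratio was 1.89, the scaled tag ratio 1.46 (1.03 to 2.08) and the summit distance 109 bp. All 10 uneven sites were picked as extremes of the same ratio, so their sizes are descriptions.

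**Figure D4:**
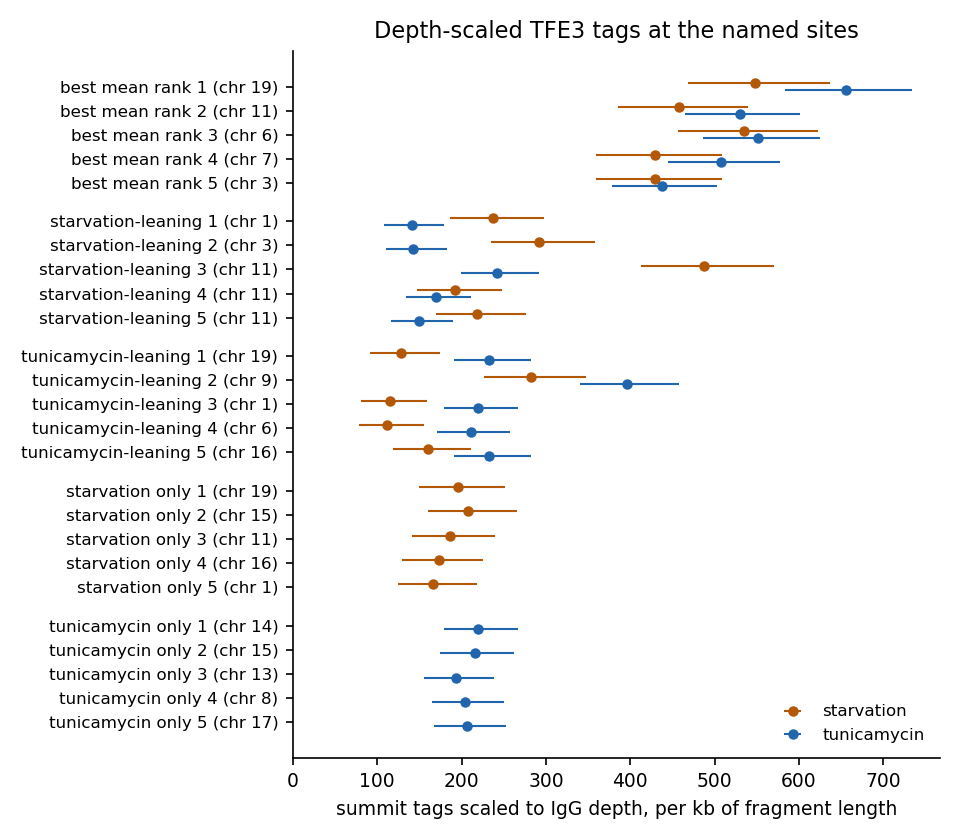
Summit TFE3 tags scaled to the depth of the IgG library, per kb of fragment length (horizontal axis), at 5 sites of each class (vertical axis, labelled by chromosome), starvation in orange and tunicamycin in blue. Bars are 95% exact Poisson intervals, and no value is drawn where a list has no peak. With this scaling the intervals overlap at the 5 best-ranked sites. They lie apart at starvation-leaning sites 1, 2 and 3 and at tunicamycin-leaning sites 1, 3 and 4.

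The margin that each unshared peak would have had in the other library was also computed. From the tags of a peak, the tags expected in the other library at the same enrichment were computed, along with the fewest that would reach the lowest −log10 p of that library's list (5.27 for starvation, 4.70 for tunicamycin). Of 1478 unshared tunicamycin peaks with recovered tags, 1464 (99.1%, 98.4 to 99.5) were expected to reach it, as were 1283 of 1289 shared ones (99.5%). For the unshared peaks the median expectation was 31.6 starvation tags, and the median number needed was 20. The number does not separate shared from unshared peaks, and the part of depth in the missing calls was not tested. MACS2 also asks for a minimum peak length, which this number leaves out, and the summits of called peaks are selected for high tag numbers.

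The margin was nonetheless smaller for unshared than for shared peaks. It is a peak's own tags, rescaled, over a nearly constant need. That need had quartiles of 20 and 22 tags for tunicamycin peaks and 24 and 28 for starvation peaks. The difference therefore restates that unshared peaks were weaker and is no separate result. Expected tags were at least 2 times those needed for 141 of 1478 unshared tunicamycin peaks (9.54%, 8.09 to 11.2) and for 716 of 1289 shared ones (55.5%, 52.8 to 58.3). In the starvation list they were so for 83 of 418 unshared peaks (19.9%, 16.1 to 24.0) and 812 of 1282 shared peaks (63.3%, 60.6 to 66.0). With the 25th percentile of −log10 p in the starvation list (10.2) in place of the lowest, 748 of 1478 unshared tunicamycin peaks (50.6%, 48.0 to 53.2) were expected to pass. Of the shared tunicamycin peaks, 1090 of 1289 (84.6%, 82.5 to 86.5) were. Against the same percentile of the tunicamycin list, 216 of 418 unshared (51.7%) and 1112 of 1282 shared (86.7%) starvation peaks were expected to pass. Most peaks held by 1 list alone thus had expected tags less than 2 times those needed in the other library.

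**Figure D5:**
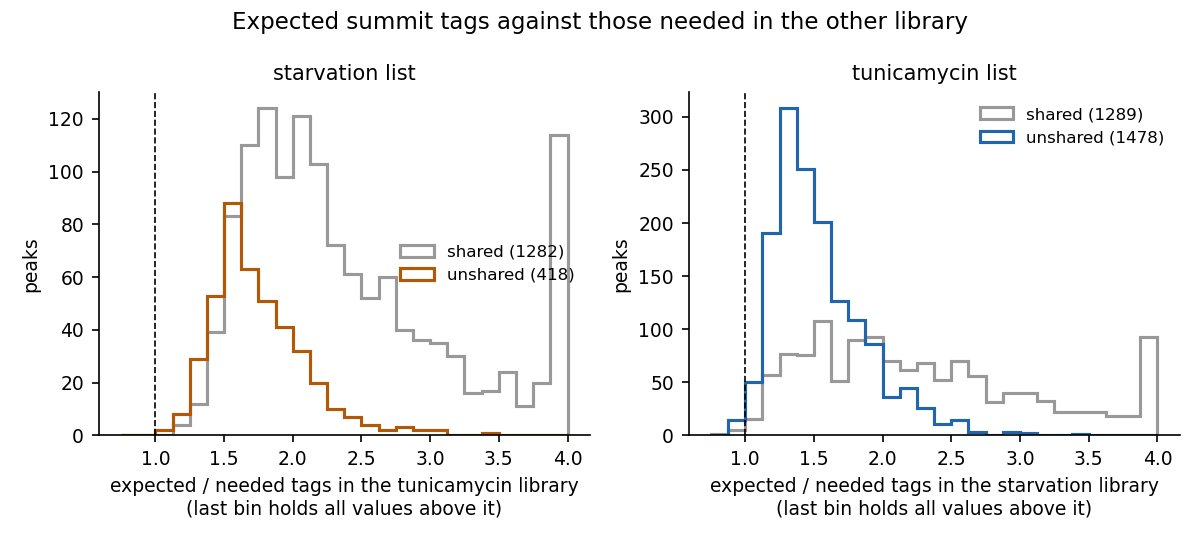
Tags expected in the other library at equal enrichment, divided by the fewest that reach the lowest p-value of its list (horizontal axis), for the starvation list (left) and the tunicamycin list (right). The vertical axis counts peaks, and the dashed line marks a ratio of 1. Unshared peaks crowd below 2, with a median of 1.68 for starvation and 1.47 for tunicamycin, and shared peaks reach further to the right. The ratio mostly follows a peak's own tags.

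The 5 highest-scored starvation peaks without a tunicamycin peak were chosen on the same tags that give the expectation, so their margins are a description. On chromosome 19 at 5846670 to 5847133, 61 tags (46.7 to 78.4) at 10.5-fold corresponded to 88.9 expected tunicamycin tags, where 26 were needed, and the nearest tunicamycin peak was 236 kb away. On chromosome 15 at 75616667 to 75617051, 65 tags (50.2 to 82.8) at 8.24-fold corresponded to 94.7, where 33 were needed. The peaks on chromosome 11 at 86437869 to 86438334 and chromosome 1 at 170528283 to 170528640 had 58 and 52 tags, at 9.37-fold and 8.95-fold. The peak on chromosome 16 at 45968871 to 45969164, with 54 tags (40.6 to 70.5) at 8.83-fold, lay 1.16 kb from a tunicamycin peak. Expected over needed tags ran from 2.81 to 3.42 at these 5 sites.

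The 5 highest-scored tunicamycin peaks without a starvation peak were chosen in the same way, and on the starvation scale they corresponded to 60.4 to 68.7 tags, beside 52 to 65 tags at the 5 starvation peaks. On chromosome 14 at 60584484 to 60584849, 100 tags (81.4 to 122) at 13.4-fold corresponded to 68.7 expected starvation tags, where 20 were needed. On chromosome 13 at 107211967 to 107212330, 88 tags (70.6 to 108) at 11.8-fold corresponded to 60.4, and the nearest starvation peak was 1894 kb away. The peaks on chromosome 8 at 98968925 to 98969313 and chromosome 17 at 22227001 to 22227324 had 93 and 94 tags at 11.1-fold and 11.2-fold. The peak on chromosome 15 at 59170010 to 59170412, with 98 tags (79.6 to 119) at 10.8-fold, had a starvation peak 35.1 kb away.

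The distance from peaks held by 1 list alone to the other list was also taken. Overlapping peaks are left out by definition, and no share expected from the density of the lists was computed. Of 420 unshared starvation peaks, 27 (6.43%, 4.28 to 9.22) had a tunicamycin peak within 10 kb. Of 1484 unshared tunicamycin peaks, 29 (1.95%, 1.31 to 2.79) had a starvation peak so near. The median gap was 229 kb (86.8 to 496) for the first and 499 kb (181 to 1134) for the second, where the starvation list is the sparser of the lists. Within its own list an unshared tunicamycin peak lay a median of 277 kb from the next summit, and a shared one 215 kb. Most sites unique to 1 list thus lay more than 10 kb from any peak of the other, and the part of list density in this was not tested.

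Sharing was spread over the genome. By chromosome, the share of starvation peaks with a tunicamycin peak was highest on chromosome 5, at 107 of 124 (86.3%, 79.0 to 91.8), and lowest among autosomes on chromosome 6, at 75 of 114 (65.8%, 56.3 to 74.4). On chromosome X it was 7 of 14 (95% interval 23.0 to 77.0%). In the tunicamycin list the share ran from 39.2% on chromosome 3 (73 of 186, 32.2 to 46.7) to 56.7% on chromosome 17 (89 of 157, 48.6 to 64.6). The intervals of most chromosomes overlap, and the highest and lowest were picked from 20.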

How the data were processed

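Each TFE3 library had a peak list called against IgG and not on pooled samples, per the file headers' peak names. The submitters' processing notes name Bowtie, MACS2 and build mm9 without versions or roles. For every peak the authors deposited a score, the fold enrichment (a linear ratio), the −log10 p-value and −log10 q-value, and the summit position. The deposited score was the whole part of 10 times −log10 q in 100% of peaks. Coordinates are 1-based mm9 positions.

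Tag numbers were computed from fold and p with MACS2's formulas (pseudocount 1), which no label records. A single whole number met p within 0.004 for 1700 of 1712 starvation peaks (99.3%) and 2767 of 2776 tunicamycin peaks (99.7%), against 4.79% and 5.30% with p shuffled among peaks. The depth scale was chosen to give the most peaks a single whole number. It was not fitted again to the shuffled values, so these shares are not like for like. Relative to IgG, depth was 1.62 for starvation and 2.14 for tunicamycin. The code for overlap and recovery was tested on simulated data. The recovery simulation used the same formulas, so it cannot show that the deposited values follow them. Software was Python 3.11.15 with scipy 1.17.1, numpy 2.4.6, pandas 2.3.3 and matplotlib 3.10.9.

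Named sites are the 5 pairs of best mean rank, the 5 highest and 5 lowest fold ratios among pairs at or above the median score in both lists (96 and 100), and the 5 highest-scored unshared peaks of each list. The comparison, this rule and the lists were chosen with earlier results of these data known. Genes, motifs and sequences were planned but need an mm9 genome or annotation, which was not used here. The control list was not used here.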

Additional observations from a re-analysis of the deposited data

How the results depend on the processing

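No paired analysis was possible because each group had 1 library, and none could be left out. Under a 50% reciprocal overlap, summits within 100 bp or a gap of up to 500 bp, the shares of shared peaks stayed within their main intervals and the counts within 1.5 times, and so they did with tunicamycin peaks expected to reach the lowest starvation p-value. At a score of at least 100 in both lists 629 peaks were shared (79.2% of starvation, 43.7% of tunicamycin), with 71 pairs at least 1.5 times higher in tunicamycin and 15 in starvation. With the tunicamycin list cut to 1712 peaks the share was 62.1% of either list. With tunicamycin peaks expected to reach the 25th percentile of starvation p (chosen after seeing the data) it was 63.7% of starvation and 59.3% of tunicamycin peaks. At pairs at the genome-wide background in both lists the median fold ratio was 1.22, with 103 pairs at least 1.5 times higher in tunicamycin and 16 in starvation. These settings keep fewer peaks or pairs, which lowers counts by construction. The median fold ratio was also above 1 with the 50% reciprocal overlap, summits within 100 bp and the score limit, and the median ratio of scaled tags was 1.13.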

Other observations

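A few peaks of both lists stood on high IgG signal. The recovered local background was at least 5 times the genome-wide value at 8 of 1700 starvation peaks and 10 of 2767 tunicamycin peaks, of which 6 and 6 were shared. For tunicamycin the most extreme case, picked with its value known, lay on chromosome 11 at 3069497 to 3069730, with 279 TFE3 tags over 76.0 IgG tags per fragment and a fold of 1.70. It had no starvation peak. For starvation it lay on chromosome 8 at 19725626 to 19725979, with 223 tags over 25.5 IgG tags and a fold of 5.25, and it was shared.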
